A study of Homo sapiens with 192 samples.

Results

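The 10 genes studied here belong to the bone morphogenetic protein (BMP) pathway and were followed through 4 human colorectal cancer (CRC) cell lines: the ligands BMP2 and BMP4, the targets ID1, ID2, ID3, ID4 and ATOH8, the inhibitory SMADs SMAD6 and SMAD7, and the pseudoreceptor BAMBI. They are 10 of the 58243 genes listed in the count tables, and all 10 were among the 19387 that passed the expression filter. ATOH8 was chosen by its rise in HT29 cells grown in 3D, so its HT29 values are given as a description without a test. The other 9 were taken as named BMP ligands, targets and inhibitors.

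HT29, LS513, HCT116 and LS174T are established lines from colorectal carcinomas. Each was grown as a 2D layer or in 3D, and 3 libraries of messenger RNA were sequenced for every line and growth condition, so that 24 libraries fell into 8 groups. The study grew spheroids in low-attachment plates, and how the 3D cultures for RNA were set up is not given separately. No treatment is named for any group, and the lines were kept in DMEM with serum except HCT116, which was kept in McCoy medium, so line and medium cannot be told apart for HCT116. The sources do not say whether the 3 libraries of a group came from separate cultures, so p-values measure the spread between these libraries, which may be technical.

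BMP ligands are secreted proteins that bind pairs of type I and type II receptor kinases at the cell surface. The receptors phosphorylate SMAD1, SMAD5 and SMAD9, which enter the nucleus with SMAD4 and switch on target genes, among them the ID genes and the inhibitory SMADs that feed back on the pathway. In the colon, BMP signalling is strongest towards the surface of the crypt, where it opposes stem cell renewal and favours differentiation. ID proteins lack a DNA-binding region and hold E-proteins, such as those encoded by TCF3, TCF4 and TCF12, away from DNA. ATOH8 encodes a helix-loop-helix transcription factor of the atonal family.

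The 250 bases before the start site were read for ID1 and ID3, whose levels moved together from library to library, and for SMAD6 and BAMBI, the 2 inhibitors in which a SMAD motif was found. Sequences are those of RefSeq on GRCh38.p14, which held entries for 9 of the 10 genes, and each runs 5′ to 3′ on the strand of the gene. Capitals mark GGCGCC, bound by the BMP-activated SMADs, or GTCTAGAC, the palindromic SMAD-binding sequence. Each of these motifs equals its own reverse complement, so a match counts for both strands.
ID1, chr20:31605039-31605288, plus strand: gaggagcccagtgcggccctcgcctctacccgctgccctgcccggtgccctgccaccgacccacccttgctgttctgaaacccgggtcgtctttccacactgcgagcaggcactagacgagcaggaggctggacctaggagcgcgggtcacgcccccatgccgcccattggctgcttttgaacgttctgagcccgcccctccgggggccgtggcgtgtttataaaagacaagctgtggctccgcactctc
ID3, chr1:23559502-23559751, minus strand: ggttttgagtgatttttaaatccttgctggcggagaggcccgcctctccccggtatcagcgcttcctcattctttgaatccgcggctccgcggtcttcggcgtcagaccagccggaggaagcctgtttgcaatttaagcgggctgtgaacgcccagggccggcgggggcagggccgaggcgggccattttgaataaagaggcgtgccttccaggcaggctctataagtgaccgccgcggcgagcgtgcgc
SMAD6, chr15:66701986-66702235, plus strand: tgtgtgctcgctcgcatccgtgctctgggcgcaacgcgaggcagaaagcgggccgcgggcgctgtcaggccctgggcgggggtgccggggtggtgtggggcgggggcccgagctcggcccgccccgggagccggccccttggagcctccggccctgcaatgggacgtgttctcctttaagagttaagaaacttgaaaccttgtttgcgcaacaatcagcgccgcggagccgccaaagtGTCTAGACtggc
BAMBI, chr10:28677271-28677520, plus strand: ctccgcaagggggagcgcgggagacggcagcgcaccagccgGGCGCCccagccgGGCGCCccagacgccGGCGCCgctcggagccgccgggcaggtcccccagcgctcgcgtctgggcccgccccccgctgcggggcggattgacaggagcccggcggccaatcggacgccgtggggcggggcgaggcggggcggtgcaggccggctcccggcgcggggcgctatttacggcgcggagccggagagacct

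GGCGCC was present in 16.4% of the 35097 promoters of the same length, and GTCTAGAC in 0.182%. BAMBI held 3 copies of GGCGCC, which begin 209, 196 and 181 bases before its start, and 1 of the 3 start sites of BMP4 held 1 copy at 232 bases. These were 2 of the 9 genes with entries. The BAMBI window was 81.2% G or C, against a median of 58.0% over all promoters. The share of 16.4% is therefore not a like background for this motif, which is all G and C. SMAD6 held GTCTAGAC 12 bases before its start. The windows of ID1 and ID3 held neither motif, and no E-box (CANNTG, in 61.8% of promoters). A match is a description of the letters, and these windows do not cover distant enhancers.

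Library totals ranged from 18723942 to 34277421 counts, and levels are given as CPM, which are counts scaled to library size with TMM factors. A count of 3 in a library, or 0.0853 to 0.164 CPM on this scale, was taken as the floor of detection. Intervals and floors cover counting error only. The mitochondrial share of counts was 1.14% to 3.48% in 23 libraries and 6.4% in HCT116 grown in 3D, replicate 1. The epithelial marker EPCAM was present in all groups, whereas CD3E and COL1A2 had no count in any group and the leukocyte marker PTPRC did not exceed a group mean of 0.0229 CPM. Other epithelial markers were low in some groups. In 2D, VIL1 averaged 0.223 CPM in HCT116, KRT20 0.817 CPM in LS174T and CDX2 1.43 CPM in HT29. KRT20 was higher in 3D in all 4 lines (log2 0.76 to 3.93), and CDX2 in all but HCT116. CDH1 was higher in LS513 and HCT116, VIL1 in HT29 and LS513, and EPCAM in LS513, whereas KRT18 was lower in HT29. The 5 fibroblast markers summed to 9.96 to 21.8 CPM in HCT116, nearly all of it COL1A1 (means of 14.1 CPM in 2D and 16 CPM in 3D), and to at most 1.1 CPM in the other lines. CD68, a lysosomal gene used as a macrophage marker, was detected in all 4 lines and was higher in 3D in each. CD14, another leukocyte marker, was higher in 3D in HT29 (6.11 to 12.6 CPM). The 4 leukocyte markers summed to 2.08 to 20.5 CPM in 2D and 5.07 to 91.9 CPM in 3D. Of the 5 endothelial markers, VWF was higher in 3D in LS513 and HCT116, and TEK was higher in HT29 (adjusted p = 0.02), where their summed level was 1.03 to 1.81 CPM in 2D and 2.49 to 3.19 CPM in 3D, with KDR at 0. The part of these markers in the results below was not tested. Fewer cells of a type and less RNA per cell cannot be told apart in bulk libraries.

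The ligand BMP2 was higher in 3D in 3 of the 4 lines. BMP2 (ENSG00000125845, chr20:6767664-6780280 of GRCh38, plus strand) measured 0.998, 1.03 and 1.11 CPM in the LS513 libraries grown in 2D and 8.49, 5.26 and 3.85 CPM in those grown in 3D. LS174T gave 4.96, 4.61 and 3.97 CPM in 2D and 18.03, 12.5 and 18.4 CPM in 3D. The growth conditions did not overlap in either line, and every 3D library of LS513 held over 3 times the CPM of any 2D library. The log2 fold change of 3D over 2D was 2.48 (SE 0.30, adjusted p = 2.4e-06) in LS513 and 1.85 (SE 0.26, adjusted p = 2.3e-05) in LS174T. BMP7, a ligand outside the genes studied here, was more abundant per kilobase of exonic sequence in both lines. In LS513 it averaged 36.7 CPM per kilobase in 2D and 38.6 in 3D, against 0.29 and 1.63 for BMP2. In LS174T the means were 16.9 and 19.5, against 1.25 and 4.53. The BMP7 log2 differences of 0.07 and 0.21 did not pass (edgeR adjusted p = 0.76 and 0.26). In HT29, BMP7 lay below BMP2 (0.214 and 0.261 against 2.62 and 4.87).

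In HT29 the BMP2 libraries measured 8.09, 10.6 and 9.53 CPM in 2D and 24.4, 10.1 and 18.1 CPM in 3D. The lowest 3D library therefore lay inside the 2D range, and the log2 fold change was 0.90 (SE 0.25, adjusted p = 0.006). Without the highest 3D library, replicate 1, the change was 0.62 and did not pass the test (adjusted p = 0.065). HCT116 expressed little BMP2 in either condition, with means of 0.623 ± 0.11 CPM in 2D and 0.519 ± 0.073 CPM in 3D (SD, n = 3), and its log2 change of -0.27 did not pass (adjusted p = 0.69). The growth effect on BMP2 differed between the 4 lines (interaction test of edgeR, adjusted p = 0.0013), and also between LS513, HCT116 and LS174T alone (adjusted p = 0.0032).

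BMP4 (ENSG00000125378, chr14:53949736-53958761, minus strand), the second ligand, was far more abundant than BMP2 in every group. Per kilobase of exonic sequence, group means of BMP4 lay between 42.2 and 188 CPM and those of BMP2 between 0.144 and 4.87 CPM. In HT29, BMP4 measured 357, 364 and 334 CPM in 2D and 678, 422 and 547 CPM in 3D. All 3 libraries grown in 3D lay above all 3 grown in 2D, with the widest spread in 3D, and the log2 change was 0.64 (SE 0.12, adjusted p = 0.00025). No change passed the test in LS513 (578 to 480 CPM, log2 -0.27, adjusted p = 0.12), HCT116 (236 to 235 CPM, log2 -0.01, adjusted p = 1) or LS174T (130 to 154 CPM, log2 0.25, adjusted p = 0.15). The BMP4 effect differed between the 4 lines (adjusted p = 0.003), and over the 3 lines other than HT29 the test was not passed (adjusted p = 0.15).

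**Figure D1:**
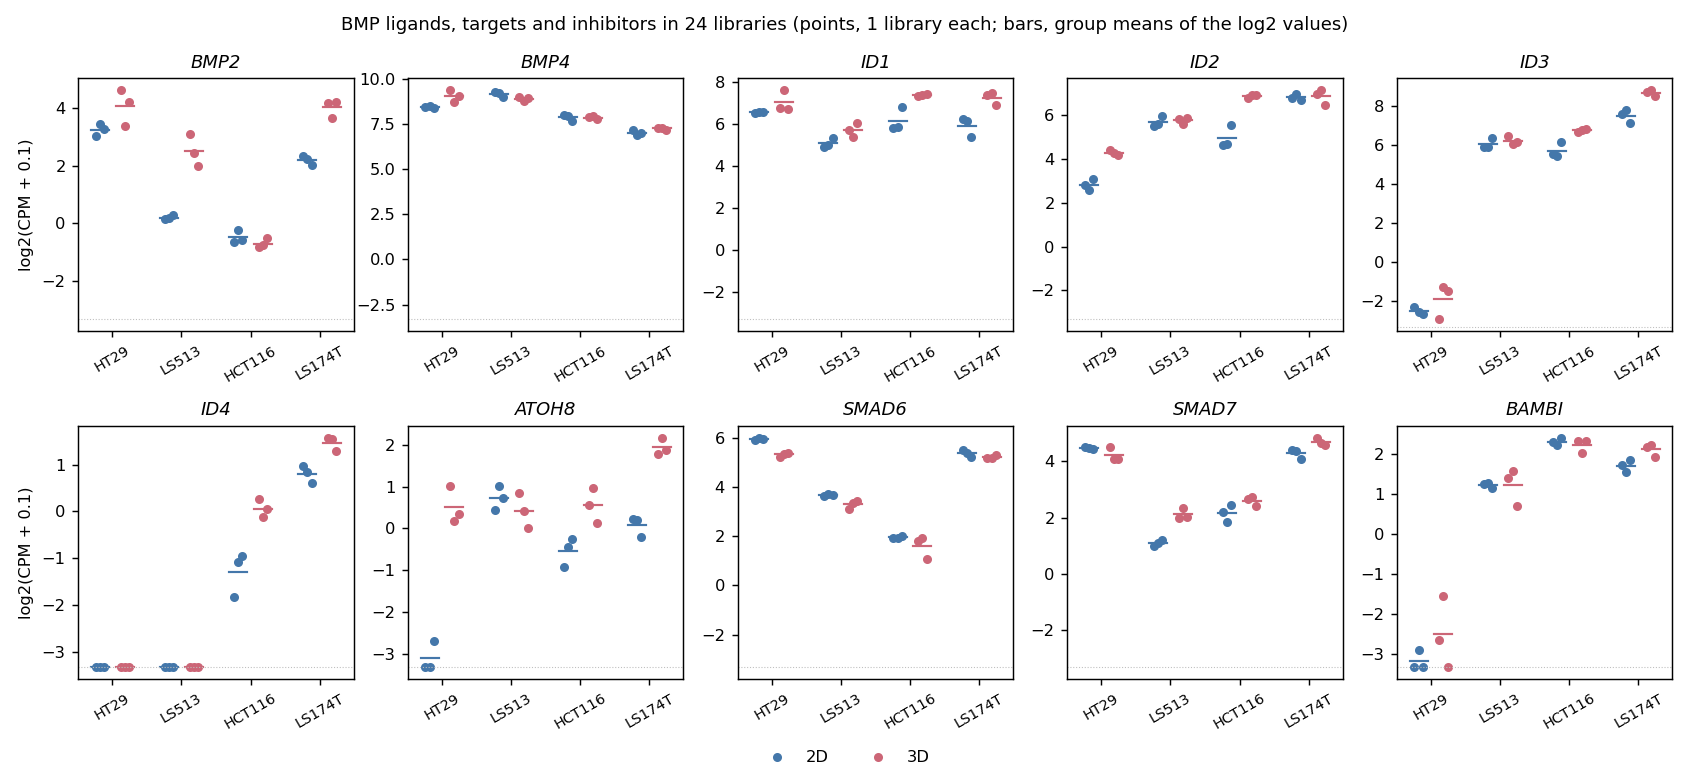
Level of each of the 10 genes in the 24 libraries, as log2(CPM + 0.1), with 1 point per library, 2D in blue and 3D in red, and bars at the group means. The dotted line marks 0 CPM. BMP2 stands higher in 3D in LS513 and LS174T, ATOH8 leaves the bottom of the axis in HT29, and ID4 lies at 0 in every HT29 and LS513 library.

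ID1 was the one gene of the 10 whose 3D libraries all lay above its 2D libraries in each of the 4 lines. Across all genes tested, 5.28% had this pattern. ID1 (ENSG00000125968, chr20:31605283-31606515, plus strand) is a well known immediate target of BMP receptors. In LS174T it measured 76.9, 71.5 and 41.1 CPM in 2D and 169, 180 and 121 CPM in 3D. HCT116 gave 55.7, 57.5 and 112 CPM in 2D and 164, 169 and 176 CPM in 3D. The 3D libraries of HCT116 were close together, and 1 of its 2D libraries stood well above the other two. The log2 change was 1.31 (SE 0.27, adjusted p = 0.0019) in LS174T and 1.18 (SE 0.27, adjusted p = 0.0025) in HCT116.

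HT29 libraries held 94.0, 95.4 and 94.4 CPM of ID1 in 2D and 108, 199 and 106 CPM in 3D. LS513 libraries held 29.6, 32.0 and 40.4 CPM in 2D and 52.7, 41.9 and 65.6 CPM in 3D. The groups were apart in both lines, narrowly so in LS513, and neither log2 change passed the test (0.54, SE 0.27, adjusted p = 0.12 in HT29, and 0.65, SE 0.27, adjusted p = 0.092 in LS513). Both calls were made when all genes with at least 1 count entered the fit (adjusted p = 1.7e-05 and 3.6e-06). The filtered fit is the one whose calls are counted below, and neither rise is counted there. The growth effect on ID1 was not found to differ between the 4 lines (adjusted p = 0.33), although without the expression filter it was (adjusted p = 8.3e-05).

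ID3 (ENSG00000117318, chr1:23557918-23559794, minus strand), which encodes a close relative of ID1, was higher in 3D in the same 2 lines as ID1. Its LS174T libraries measured 190, 222 and 137 CPM in 2D and 413, 452 and 364 CPM in 3D. In HCT116 the values were 46.3, 42.4 and 70.9 CPM in 2D and 101, 108 and 113 CPM in 3D. The groups were apart in both lines, and the 2D library of HCT116 with the highest ID1, replicate 3, also had the highest ID3. The log2 change was 1.16 (SE 0.19, adjusted p = 0.00014) in LS174T and 1.01 (SE 0.19, adjusted p = 0.00035) in HCT116.

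LS513 carried 66.9 ± 12 CPM of ID3 in 2D and 75.1 ± 12 CPM in 3D (SD, n = 3), a log2 difference of 0.17 that did not pass (adjusted p = 0.58). HT29 was nearly without ID3, with 3, 2 and 1 counts in 2D and 1, 9 and 7 counts in 3D. The ratio of the depth-scaled sums was 2.42, with a 95% counting interval of 0.909 to 7.49 that includes no change. The ID3 growth effect differed between the 4 lines (adjusted p = 0.035), a call that was lost when any 1 of 9 libraries was left out (adjusted p = 0.05 to 0.13). These were LS513 in 2D replicate 3 and in 3D replicates 2 and 3, HCT116 in 2D replicate 1 and in 3D replicate 2, and LS174T in 2D replicates 1 and 3 and in 3D replicates 1 and 2.

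ID2 (ENSG00000115738, chr2:8678845-8684453, plus strand) was higher in 3D in HCT116 and HT29. The HCT116 libraries measured 24.5, 25.9 and 45.8 CPM in 2D and 109, 122 and 120 CPM in 3D. The HT29 libraries measured 6.86, 5.95 and 8.27 CPM in 2D and 20.8, 19.2 and 17.9 CPM in 3D. The growth conditions lay far apart in both, and the log2 change was 1.87 (SE 0.19, adjusted p = 2.1e-07) in HCT116 and 1.47 (SE 0.21, adjusted p = 1e-05) in HT29.

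In LS513 and LS174T, where ID2 stood at 51.9 and 112 CPM in 2D, the log2 differences were 0.06 and 0.08 (adjusted p = 0.88 and 0.81) and the growth conditions overlapped. The growth effect on ID2 differed between the 4 lines (adjusted p = 1.9e-05) and between the 3 lines other than HT29 (adjusted p = 5.2e-05). ID2 shares 38 exonic bases, 1.7% of its exonic length, with the antisense gene ID2-AS1. The library kit kept the strand, but the strand setting of the counting is not given in the sources used here.

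ID4 (ENSG00000172201, chr6:19837386-19840684, plus strand) had no count in any of the 12 libraries of HT29 and LS513, which allows up to 3 counts per library. In HCT116 it had 6, 13 and 13 counts in 2D and 33, 25 and 28 counts in 3D. The sets did not overlap, and means were 0.324 ± 0.13 CPM in 2D and 0.95 ± 0.14 CPM in 3D, with a log2 change of 1.54 (SE 0.32, adjusted p = 0.0021). LS174T had the highest level, 1.66 ± 0.22 CPM in 2D and 2.69 ± 0.31 CPM in 3D (SD, n = 3), and its log2 difference of 0.69 did not pass (SE 0.25, adjusted p = 0.061).

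ATOH8 (ENSG00000168874, chr2:85751344-85788066, plus strand) was higher in 3D in HCT116 and LS174T. It was chosen by its rise in HT29, but with earlier results of these data known. LS174T libraries measured 1.08, 1.05 and 0.77 CPM in 2D and 3.34, 4.41 and 3.56 CPM in 3D. In HCT116 the values were 0.423, 0.633 and 0.738 CPM in 2D and 1.36, 1.86 and 1.00 CPM in 3D. Neither line showed overlap between growth conditions, although all of these are low levels that rest on 14 to 121 counts per library. The log2 change was 1.96 (SE 0.29, adjusted p = 5.5e-05) in LS174T and 1.24 (SE 0.33, adjusted p = 0.0063) in HCT116, and the latter was 0.96 without replicate 2 grown in 3D (adjusted p = 0.058).

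In LS513, ATOH8 did not pass the test: its libraries measured 1.26, 1.93 and 1.55 CPM in 2D and 1.69, 1.24 and 0.901 CPM in 3D, with a log2 difference of -0.31 (SE 0.30, adjusted p = 0.51). HT29, whose rise selected the gene, had 0, 0 and 1 counts in 2D and 64, 30 and 32 counts in 3D, or 1.93, 1.04 and 1.16 CPM. The ratio of the depth-scaled sums was 107, which rests on 1 count in 2D and describes the values that picked the gene. In 3D, the HT29 libraries overlapped those of LS513 and HCT116, and in 2D they lay below all other libraries. Among LS513, HCT116 and LS174T the growth effect on ATOH8 differed (adjusted p = 0.0025).

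**Figure D2:**
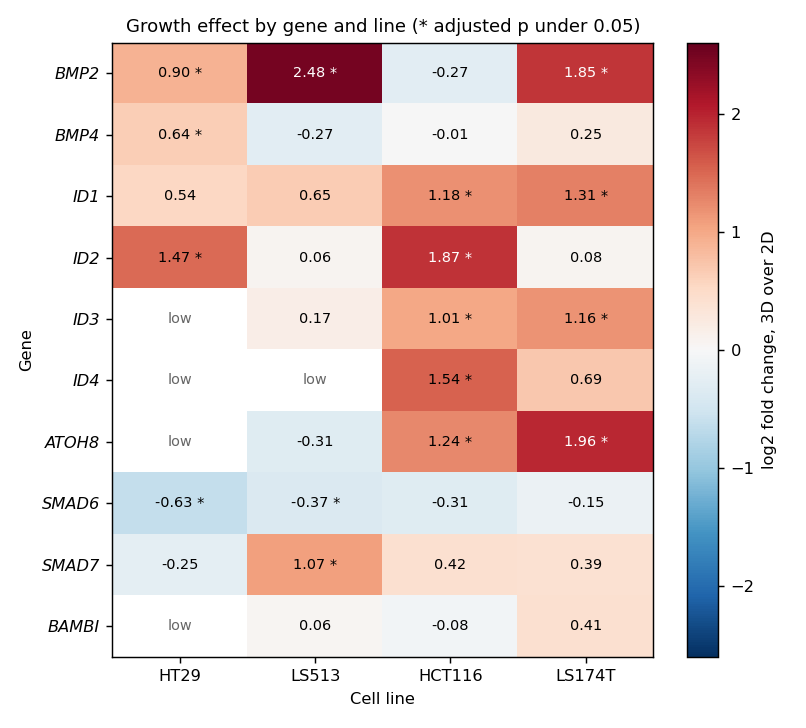
Log2 fold change of 3D over 2D for each gene (rows) and cell line (columns), with red for higher and blue for lower in 3D. Asterisks mark an edgeR adjusted p under 0.05, and cells marked low have a group with a library at or below the floor of 3 counts. The ID genes and ATOH8 are red with asterisks in HCT116, whereas SMAD6 is blue in all 4 lines and has asterisks in HT29 and LS513.

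SMAD6 and SMAD7 encode the inhibitory SMADs, which block receptors and the SMADs they phosphorylate. SMAD6 acts mainly on BMP receptors and SMAD7 also on those of TGF-beta. SMAD6 (ENSG00000137834, chr15:66702228-66782848, plus strand) was lower in 3D in HT29, with 59.5, 64.1 and 61.6 CPM in 2D and 37.2, 40.6 and 41.8 CPM in 3D. No HT29 libraries overlapped, and the log2 change was -0.63 (SE 0.13, adjusted p = 0.00047). In LS513 the values were 12.2, 13.1 and 12.6 CPM in 2D and 8.49, 10.2 and 10.6 CPM in 3D. These did not overlap either, but the log2 change of -0.37 passed only narrowly (SE 0.14, adjusted p = 0.049), and 8 alternatives lost it. Among these were the size factors of DESeq2 (adjusted p = 0.054) and leaving out any 2D library, or replicate 1 or 2 grown in 3D (adjusted p = 0.077 to 0.2).

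The SMAD6 differences in HCT116 (3.77 to 3.04 CPM, log2 -0.31, adjusted p = 0.15) and LS174T (41.3 to 37.3 CPM, log2 -0.15, adjusted p = 0.43) did not pass. No difference of the growth effect on SMAD6 between lines was called (adjusted p = 0.25). SMAD7 (ENSG00000101665, chr18:48919853-48952052, minus strand) was higher in 3D in LS513, with 1.87, 2.02 and 2.19 CPM in 2D and 3.84, 5.01 and 3.92 CPM in 3D. The conditions were well apart there, and the log2 change was 1.07 (SE 0.18, adjusted p = 0.00012). HCT116 and LS174T did not pass, with log2 differences of 0.42 (adjusted p = 0.052) and 0.39 (adjusted p = 0.056), and DESeq2 called both (adjusted p = 0.044 and 0.035). The HT29 difference was -0.25 (22.3 to 18.8 CPM, adjusted p = 0.19). The SMAD7 effect differed between the 4 lines (adjusted p = 0.0021), and over the 3 lines other than HT29 the test was not passed (adjusted p = 0.12).

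BAMBI (ENSG00000095739, chr10:28677342-28682939, plus strand) encodes a receptor-like protein without a kinase domain that dampens TGF-beta and BMP signals. None of its growth effects passed the test. HCT116 had 4.89 ± 0.32 CPM in 2D and 4.63 ± 0.53 CPM in 3D, LS174T 3.2 ± 0.34 and 4.26 ± 0.48 CPM, and LS513 2.24 ± 0.11 and 2.34 ± 0.72 CPM (SD, n = 3). The log2 differences were -0.08, 0.41 and 0.06, with adjusted p of 0.86, 0.23 and 0.95. In HT29, BAMBI was near the floor with 0, 1 and 0 counts in 2D and 2, 7 and 0 counts in 3D. The ratio of the depth-scaled sums was 7.68, with a 95% counting interval of 1.06 to 337, and the edgeR test was not passed (adjusted p = 0.059). It was passed without 2D replicate 2 (adjusted p = 0.044) or 3D replicate 4 (adjusted p = 0.012).

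In HT29, 3 of the 10 genes (ID3, ID4 and BAMBI) lay at or near the floor. Of the 9 members other than ATOH8, 3 were higher in 3D (ID2, BMP2 and BMP4) and 1 lower (SMAD6) in HT29, where 21.1% of all genes were higher and 19.6% lower. In LS513, 2 of 10 were higher (SMAD7 and BMP2) and 1 lower (SMAD6), against 13.7% and 9.9% of all genes. In HCT116, 5 of 10 were higher (ATOH8, ID1, ID2, ID3 and ID4) and none lower by edgeR, against 16.8% and 12.3%. In LS174T, 4 of 10 were higher (ATOH8, ID1, ID3 and BMP2) and none lower, against 13.1% and 9.15%. In neither HCT116 nor LS174T was a member lower at an unadjusted p under 0.05 (0 of 10 in each), or called lower by DESeq2. The shares of all genes lower at these settings are not given, so these counts do not set the members apart. Further BMP targets outside the 10 genes are given below. Over the members the median log2 change was 0.64 for HT29 (without ATOH8), 0.06 for LS513, 0.72 for HCT116 and 0.55 for LS174T, and that over all genes tested was between 0 and 0.02. The HCT116 calls all held without the 3D library of high mitochondrial share, with log2 changes of 1.04 to 1.9.

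The growth effect differed between the 4 lines for 5 of the 9 members other than ATOH8 (ID2, ID3, SMAD7, BMP2 and BMP4), against 17.1% of all genes. Over LS513, HCT116 and LS174T alone it did for 3 of the 9 (ID2, ID3 and BMP2), against 8.38% of all genes. The levels of all 9 differed between lines in 2D and in 3D, but so did those of 91.7% of all genes in 2D and 91.7% in 3D, so this does not set the members apart.

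The order of the lines differed from gene to gene. In 2D, HT29 had the highest SMAD6, SMAD7 and BMP2, LS513 the highest BMP4, LS174T the highest ID2, ID3 and ID4, and HCT116 the highest BAMBI, each without overlap with the next line. ATOH8 in 2D was highest in LS513 and lowest in HT29, but its low HT29 level is among the values that picked it. For ID1 in 2D, HT29 came first, but its range overlapped that of HCT116, which in turn overlapped that of LS174T, and LS513 was lowest without overlap. In 3D, LS174T was highest for ATOH8, ID3, ID4 and SMAD7 without overlap with the next line. HT29 no longer stood clear in 3D, where its SMAD6 and BMP2 ranges overlapped those of LS174T and its BMP4 range overlapped that of LS513. HT29 was lowest for ID2 and for ID3 in both growth conditions.

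Per kilobase of exonic sequence, the ID genes differed widely among themselves. LS174T grown in 3D held 228 CPM per kilobase of ID3, 127 of ID1, 53.5 of ID2 and 1.15 of ID4. HT29 grown in 3D held 111 CPM per kilobase of ID1, 8.75 of ID2 and 0.11 of ID3. The ID gene that led in CPM per kilobase was thus ID3 in LS174T and ID1 in HT29.

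ID1 and ID3 moved together from library to library. After the mean of each line was subtracted from log2(CPM + 0.5), Pearson's r over the 24 libraries was 0.93 and Spearman's rho was 0.90. The libraries share the growth contrast, which separates them, so the mean of each group was also subtracted, and r was then 0.81. This value includes the HT29 libraries, in which ID3 had at most 9 counts. For ATOH8 and ID1 the line-centred and group-centred r were 0.62 and 0.06, so little common variation was left among libraries of 1 group. The other ID genes also varied with ID1 and ID3 within groups. The group-centred r of ID2 was 0.7 with ID1 and 0.64 with ID3, and that of ID4 was 0.56 and 0.4. Common variation was thus not particular to ID1 and ID3. ID4 had no count in HT29 and LS513, so its r rests on the libraries of HCT116 and LS174T, with 6 to 94 counts. Over the 18 libraries without HT29, the line-centred r was 0.95 for ID1 with ID3 and 0.75 for ID1 with ATOH8. These are descriptions, and libraries of 1 line are not independent of each other.

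**Figure D3:**
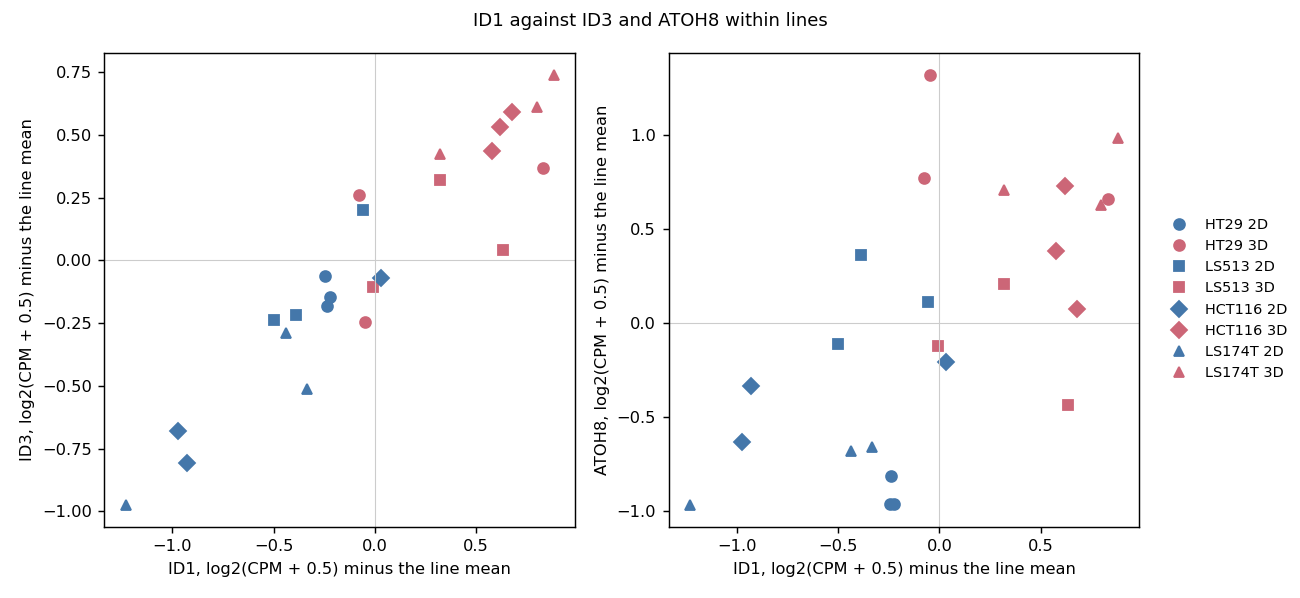
ID1 (horizontal axis) against ID3 (left) and ATOH8 (right), each as log2(CPM + 0.5) minus the mean of the line, with 1 point per library, shapes for lines, blue for 2D and red for 3D. The points of ID3 follow those of ID1 along a diagonal (r = 0.93), and those of ATOH8 scatter more (r = 0.62), with an HT29 library grown in 3D highest on the ATOH8 axis.

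Among all genes tested, those whose line-centred levels were most like ID1 were ID3 (r = 0.931), JUNB (0.914), METRNL (0.884), ANKRD37 (0.882) and ACAP1 (0.881). JUNB encodes an AP-1 transcription factor, and METRNL a secreted hormone-like protein. The genes most like ATOH8 were PLCH2 (0.934), FAM83E (0.923), RNF113A (0.915), ACPP (0.915) and ILDR1 (0.914), over the same 24 libraries. PLCH2 encodes a phospholipase C and ACPP an acid phosphatase. The log2 change of ACPP was 2.27 for HT29, -0.49 for LS513, 1.57 for HCT116 and 1.58 for LS174T. HT29, on which ATOH8 was selected, is among these libraries.

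Of 51 further BMP pathway genes, 36 were tested, and 15 of these were lower and 2 higher in 3D in HT29, where the median log2 change was -0.29. In LS513, 4 were lower and 2 higher, in HCT116 5 lower and 3 higher, and in LS174T 3 lower and 0 higher by edgeR (0 higher also at an unadjusted p under 0.05), with medians of -0.05, 0.04 and -0.02. Of the 3 called higher in HCT116, ENG had at most 1 count per library in 2D and 3 to 7 counts in 3D. The shares of all genes called in each direction are those given above, and none is given for the unadjusted p. The list also holds further BMP targets beside the ID genes and ATOH8. Of these, MSX1, MSX2, HEY1, GATA2 and GATA3 were called in no line, and HAMP was not tested. In HCT116 the log2 difference was 0.27 for MSX1 (edgeR adjusted p = 0.24) and 0.19 for MSX2 (adjusted p = 0.47). MSX1 in HT29 and LS513 and HEY1 in LS513 lay at or near the floor.

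**Figure D4:**
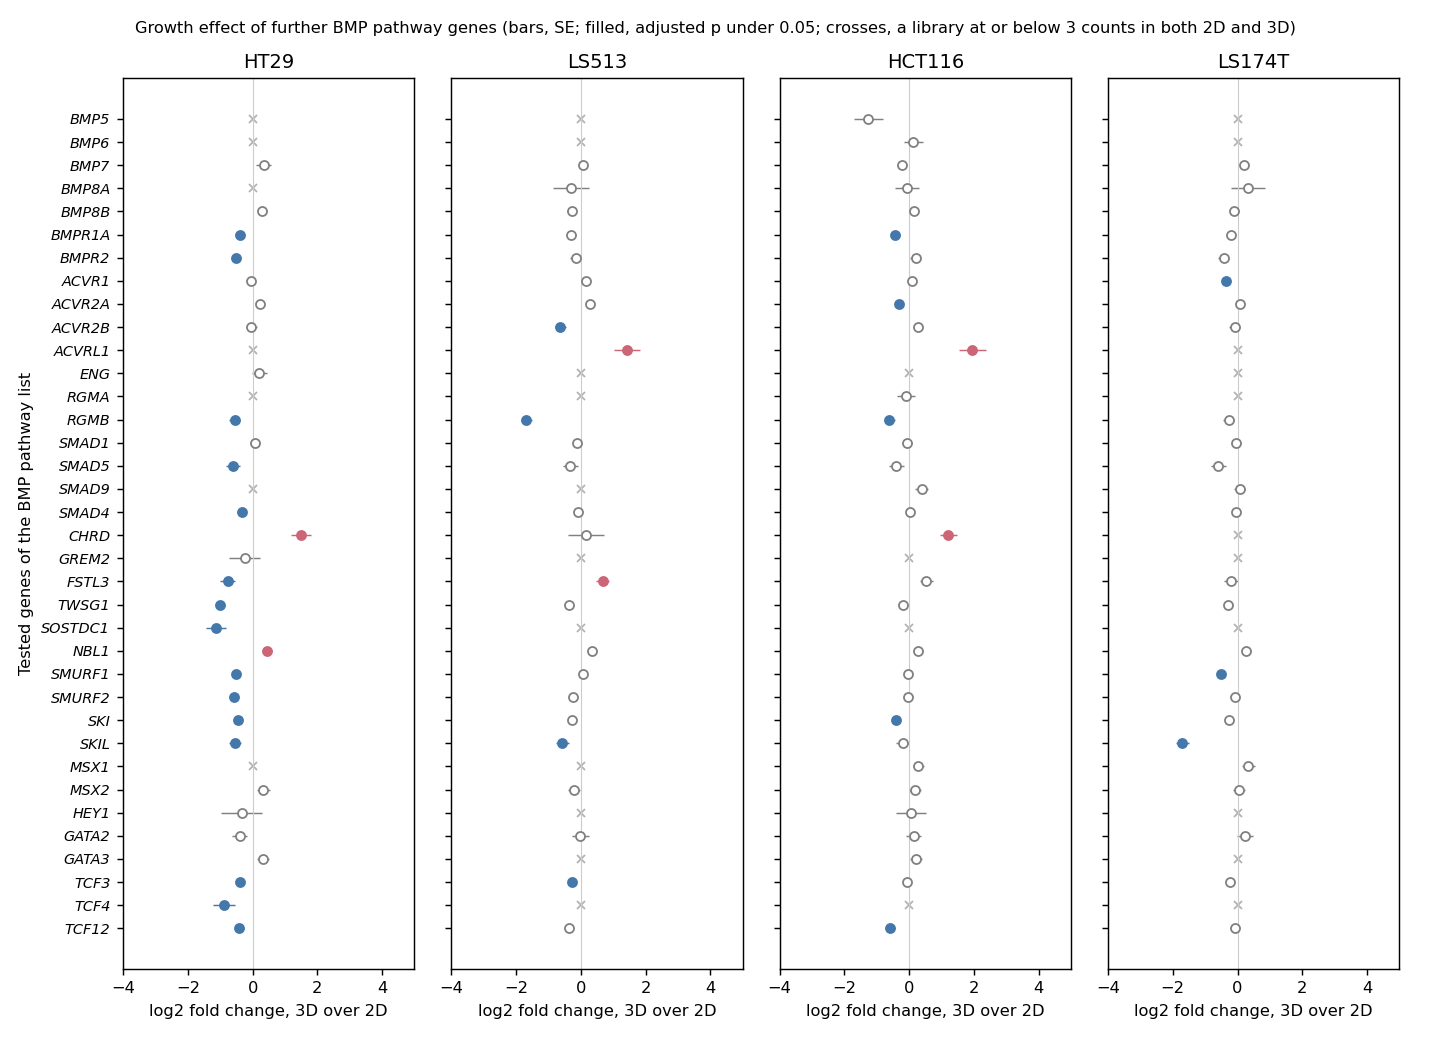
Log2 fold change of 3D over 2D (horizontal axis) for the 36 tested genes of the further pathway list (vertical axis) in each line, with bars of 1 SE. Filled blue points were lower and filled red points higher at an edgeR adjusted p under 0.05, and crosses mark genes with a library at or below the floor in both 2D and 3D, ENG in HCT116 included. In HT29, 15 points are filled blue and 2 red.

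RGMB, a BMP co-receptor, was lower in 3D in 3 lines. It went from 111 to 34.9 CPM in LS513 (log2 -1.68, adjusted p = 2.2e-07), from 26.2 to 17.9 CPM in HT29 (log2 -0.55, adjusted p = 0.014) and from 21.8 to 14.2 CPM in HCT116 (log2 -0.61, adjusted p = 0.01). SKIL, a corepressor of SMAD complexes, was also lower in 3 lines. Its log2 change was -1.70 in LS174T (19 to 5.81 CPM, adjusted p = 2.4e-06), -0.54 in HT29 (adjusted p = 0.021) and -0.58 in LS513 (adjusted p = 0.04). The fourth line showed log2 differences of -0.27 for RGMB in LS174T (adjusted p = 0.25) and -0.21 for SKIL in HCT116 (adjusted p = 0.5).

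Among the receptors and signal transducers, BMPR1A, a type I receptor, was lower in HT29 (log2 -0.39, adjusted p = 0.037) and HCT116 (log2 -0.42, adjusted p = 0.03), and BMPR2, the BMP type II receptor, in HT29 (log2 -0.51, adjusted p = 0.015). SMAD1 passed in no line (adjusted p = 0.62 to 0.88), and SMAD5 was lower in HT29 (45.2 to 29.5 CPM, log2 -0.61, adjusted p = 0.032). In LS174T, SMAD5 went from 57.7 to 38.3 CPM (log2 -0.59, adjusted p = 0.059), and the differences in LS513 and HCT116 were -0.32 and -0.39 (adjusted p = 0.32 and 0.19). The growth effect on SMAD5 was not found to differ between the 4 lines (adjusted p = 0.86). SMAD4, the shared partner, was lower in HT29 than elsewhere at 10.8 ± 1.4 CPM in 2D and 8.48 ± 1.1 CPM in 3D, against group means of 48.7 to 60.7 CPM in the other lines (difference between lines, adjusted p = 3.3e-14 in 2D and 4.4e-15 in 3D). The growth change of SMAD4 in HT29 was -0.34 (adjusted p = 0.034) with overlapping libraries. NOG, the antagonist noggin, was not tested, and had no count in HT29, LS513 and LS174T and at most 6 counts in a library of HCT116.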

How the data were processed

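Poly(A) RNA of 24 libraries was sequenced as single reads. The authors trimmed the reads with Trim Galore 0.4.1, aligned them to the Ensembl 91 human genome using STAR (the submitters' processing notes list hg19), removed reads that aligned more than once, counted reads on exons with HTSeq-count 0.5.3, and deposited these counts unnormalized, per gene and technical replicate. The strand setting of the counting is not given in the sources used here. The 191 sets of counts (8 per library, with 1 of HT29 grown in 3D not analysed here) were summed per library. Replicates of a library differed by counting error (median chi-square per degree of freedom 0.906 to 0.933), and libraries of a group by more (2.24 to 12.4).

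Tests used edgeR 4.0.16 in R 4.3.3: filterByExpr, TMM, and a robust quasi-likelihood fit with 1 coefficient for each of the 8 groups. Genes were called at a Benjamini-Hochberg adjusted p under 0.05 over all 19387 tested genes, with no fold cutoff. SE is the log2 fold change divided by the square root of its F statistic. CPM are on the TMM scale. The fit was tested on simulated data.

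Members and gene lists were chosen with earlier results of these data known. Beside the members, the named genes are pathway genes called in the same direction in at least 3 lines, SMAD1, SMAD5, SMAD4, BMPR1A, BMPR2 and NOG, and the 5 genes most like ATOH8 and ID1. ENG, BMP7 and the further targets (MSX1, MSX2, HEY1, HAMP, GATA2 and GATA3) fall outside this rule and were named after their values were seen. So do the pathway genes named in the closing section (CHRD, TWSG1, SOSTDC1, FSTL3, NBL1, ACVRL1, TCF3, TCF4 and TCF12), which were chosen in the same way. Positions come from GENCODE 29 (GRCh38), in which 57980 of 58243 identifiers were found. Alternatives were DESeq2 1.42.0, its size factors, no filter, a replicate block, technical replicate d left out, the 6 libraries of a line alone, and each library left out in turn.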

Additional observations from a re-analysis of the deposited data

Results flagged for a closer look

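The growth effect differed between the 4 lines, by the interaction test of edgeR with adjustment over all tested genes, for 5 of the 9 genes other than ATOH8. The adjusted p was 1.9e-05 for ID2, where the log2 change was 1.47 in HT29 and 1.87 in HCT116 and 0.06 and 0.08 in LS513 and LS174T. It was 0.0013 for BMP2, with changes between -0.27 in HCT116 and 2.48 in LS513, and 0.0021 for SMAD7, with changes between -0.25 in HT29 and 1.07 in LS513. It was 0.003 for BMP4, with changes between -0.27 in LS513 and 0.64 in HT29. It was 0.035 for ID3, whose HT29 libraries held at most 9 counts.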

How the results depend on the processing

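Counts of called members stayed within 1.5 times their value in every alternative but these. With only the 6 libraries of LS513 in the fit, 5 members were called in that line in place of 3, and with the 3 lines other than HT29, an alternative chosen after seeing the data, the growth effect differed for 3 members in place of 5. With the replicate block, 4, 3, 5 and 4 members were called in HT29, LS513, HCT116 and LS174T, as many as without it, and 5 interactions were called in both. The block lost the calls of BMP2 in HT29 (adjusted p = 0.058) and SMAD6 in LS513 (adjusted p = 0.1). It gained BAMBI in HT29 (adjusted p = 0.02) and ID1 in LS513 (adjusted p = 0.029). The 2D libraries of HT29 are numbered 1, 2 and 3 and its 3D libraries 1, 3 and 4. Replicate 2 in 2D and replicate 4 in 3D thus had no partner, and the HT29 block values rest on numbers 1 and 3. These HT29 changes cannot tell pairing from leaving out those libraries. No shared shift of same-numbered libraries was seen. Correlations of same-numbered deviations ranged from -0.2 to 0.17, and 1, 2 and 2 of the 6 libraries of LS513, HCT116 and LS174T correlated best with their own number. With 3 libraries per group, these values cannot decide whether the libraries were paired. Of single genes and alternatives, 655 values kept direction and side of the threshold, 20 passed it newly, 20 lost it and 8 turned direction. All 8 were differences near 0 that passed no test: leaving out 1 library gave log2 values from -0.0206 to 0.212 for ID2 in LS513, from -0.0615 to 0.25 for ID2 in LS174T, from -0.137 to 0.288 for BAMBI in LS513 and from -0.12 to 0.041 for BMP4 in HCT116, and without technical replicate d BAMBI in LS513 gave -0.00347. The causes were not tested. Depth limits ID3 and BAMBI in HT29 and ID4 in HT29 and LS513, which lie at or near the floor.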

Other observations

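Other genes of the BMP pathway, singled out after their values were seen, were called in some lines. The secreted antagonist CHRD was higher in 3D in HT29 (1.03 to 2.98 CPM, log2 1.5, edgeR adjusted p = 0.00059) and HCT116 (2.46 to 5.72 CPM, log2 1.21, adjusted p = 0.002), and had no count in LS174T. TWSG1, which encodes a secreted protein that binds BMPs, was lower in HT29 (28.9 to 14.4 CPM, log2 -1, adjusted p = 2.2e-05), as was the antagonist SOSTDC1 (3.46 to 1.56 CPM, log2 -1.13, adjusted p = 0.0083). FSTL3, a follistatin-like antagonist, was lower in HT29 (log2 -0.76, adjusted p = 0.0095) and higher in LS513 (log2 0.67, adjusted p = 0.016). NBL1, also a secreted antagonist, was higher in HT29 (104 to 142 CPM, log2 0.45, adjusted p = 0.02) and passed in no other line. The receptor ACVRL1 was higher in 3D at low levels in LS513 (0.524 to 1.42 CPM, log2 1.43, adjusted p = 0.012) and HCT116 (0.458 to 1.78 CPM, log2 1.95, adjusted p = 0.00093).

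Among the E-proteins that ID proteins bind, TCF3 was lower in 3D in HT29 (225 to 172 CPM, log2 -0.38, adjusted p = 0.0028) and LS513 (227 to 186 CPM, log2 -0.29, adjusted p = 0.03). TCF12 was lower in HT29 (log2 -0.41, adjusted p = 0.027) and HCT116 (71.3 to 47.5 CPM, log2 -0.59, adjusted p = 0.0041). Neither passed in LS174T, with log2 differences of -0.25 for TCF3 (adjusted p = 0.066) and -0.08 for TCF12 (adjusted p = 0.74). TCF4 was lower in HT29 (1.49 to 0.794 CPM, log2 -0.88, adjusted p = 0.042), and its group means were at most 0.135 CPM in the other lines. The growth effect differed between the 4 lines for FSTL3 (interaction test of edgeR, adjusted p = 0.0037) and TWSG1 (adjusted p = 0.026). It did not pass that test for CHRD, SOSTDC1, NBL1, ACVRL1, TCF3, TCF4 or TCF12 (adjusted p = 0.3 to 0.91).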
